A study of Mus musculus with 69 samples.

Results

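Transcripts of 9 genes of the fibroblast growth factor (FGF) system were followed in cultured primary murine vascular cells, namely 4 receptor genes (Fgfr1, Fgfr2, Fgfr3 and Fgfrl1) and 5 ligand genes (Fgf1, Fgf2, Fgf7, Fgf10 and Fgf18). They were taken by symbol from the 56953 gene identifiers of the RNA-Seq count tables. All 9 were found, and all 9 had enough counts to be tested in every cell type. In WT VSMC exposed to ALL stressors, Fgfr2 and Fgfrl1 transcripts rose and Fgfr1 transcripts fell. Neither Fgfr2 nor Fgfrl1 passed the main test (edgeR) in KO VSMC or in EC, while Fgfr1 also fell in EC. The direct difference in response between WT VSMC and KO VSMC passed in edgeR for none of the 9 genes. DESeq2 called that difference for Fgfr2 and Fgfrl1 under ALL. With the count filter used, the 5 ligands passed the test under no stressor in any cell type.

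The 69 libraries came from WT VSMC (16), KO VSMC (15) and EC (38). WT VSMC were smooth muscle cells grown out of the aorta of male C57BL/6 mice without the knockout. KO VSMC were the same cells from animals in which Cre under the smooth muscle SM22 promoter deletes a floxed Egfr gene, the gene of the epidermal growth factor receptor. EC were endothelial cells of the heart, purified with beads against CD31, and all of them are labelled WT, those from animals with KO VSMC included. Before the experiment the VSMC had been expanded in medium with serum and with basic FGF, the protein encoded by Fgf2, and both were withdrawn before the stressors were given. Cells were kept under Control conditions or treated for 24 h. HG + FFA stood for 20 mM glucose with free fatty acids, given as 100 µM in the sample labels and as 100 µM each of oleate and palmitate in the methods of the study. AII + NA stood for 30 nM angiotensin II with a catecholamine at 300 nM, which the labels name epinephrine and the study norepinephrine. ALL combined these agents. The libraries formed 18 sets, and a set held the conditions of cells from 1 animal treated side by side. Sets 1 to 4 were WT VSMC, sets 5 to 8 KO VSMC and sets 9 to 18 EC, with EC sets 17 and 18 from the same animal. The animals of WT VSMC sets 1 and 2 also gave EC sets 9 and 10, and those of KO VSMC sets 6 and 7 gave EC sets 16 and 15. Libraries not analysed here are that of KO VSMC under ALL in set 5 and, for EC, those of Control in set 10 and of AII + NA in set 15. WT VSMC therefore had n = 4 in each condition, KO VSMC n = 4 except for n = 3 under ALL, and EC n = 9 under Control and AII + NA and n = 10 under HG + FFA and ALL.

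FGFs bind receptor tyrosine kinases at the cell surface together with heparan sulfate, and the activated receptors signal through adaptor proteins to the RAS-ERK cascade, which induces its own inhibitors such as the Sprouty proteins. Fgfr1, Fgfr2 and Fgfr3 encode such kinases, whereas the Fgfrl1 protein has similar extracellular domains but no kinase domain. Fgf7 and Fgf10 encode ligands that bind a splice form of FGFR2 found mainly in epithelial cells, Fgf2 and Fgf1 ligands without a classical signal peptide that act on several receptors, and Fgf18 a secreted ligand with a role in skeletal and lung development. FGF2 is a known mitogen of smooth muscle and endothelial cells. The counts are per gene, so that splice forms of a receptor could not be told apart, and protein was not measured.

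Counts per library lay between 17166133 and 43240489, with a median of 27143351. Levels are given as FPM, the fragment count scaled to the TMM-normalized library size. The mean Egfr level of a set lay between 246 and 430 FPM in WT VSMC and between 0.959 and 36.5 in KO VSMC, where set 5 was the highest. EC sets differed in their identity markers. Mean Pecam1 of a set lay between 18.1 and 1594 FPM and mean Cdh5 between 8.73 and 903 FPM, and the sum of 10 endothelial markers in EC Control libraries reached from 326 to 5338 FPM, while WT VSMC Control libraries had 223 to 350 FPM. The sum of 8 fibroblast markers was 873 to 21014 FPM in EC Control libraries and 9940 to 25787 FPM in those of WT VSMC. The sum of 8 smooth muscle markers was 232 to 3937 FPM in EC Control libraries and 381 to 1212 FPM in those of WT VSMC. None of these 8 genes passed in edgeR between EC and WT VSMC under Control, so they did not separate the cell types. EC sets 9, 11 and 13 had the lowest endothelial sums, and results in EC are given with and without them. In such bulk samples more cells of a type and more RNA per cell cannot be told apart.

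Which receptors and ligands these cells carry was read from the Control libraries, with FPM divided by the exonic length in kb so that genes can be compared. Fgfr1, on chromosome 8 from 26003670 to 26066824 (GRCm39, as all positions here), had the highest level in WT VSMC, with 41.3 ± 10 FPM per kb (SD, n = 4). Fgf7 followed with 26.4 ± 14.4, Fgf18 with 23.5 ± 5.84 and Fgfrl1 with 16.5 ± 1.77 FPM per kb. The ranges of neighbours among these first 4 genes overlapped, so the order of neighbours was not resolved. The range of Fgfr1 lay wholly above that of Fgfrl1, with at least 30.5 against at most 18 FPM per kb. Fgf2 was clearly lower with 7.96 ± 1.76 FPM per kb, and its range overlapped neither that of Fgfrl1 above nor that of Fgfr2 below, which had 2.4 ± 0.844. Fgf10 had 0.93 ± 0.694, Fgf1 0.291 ± 0.112 and Fgfr3 0.0922 ± 0.0293 FPM per kb, and Fgf1 exceeded Fgfr3 in 4 of 4 libraries.

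**Figure D1:**
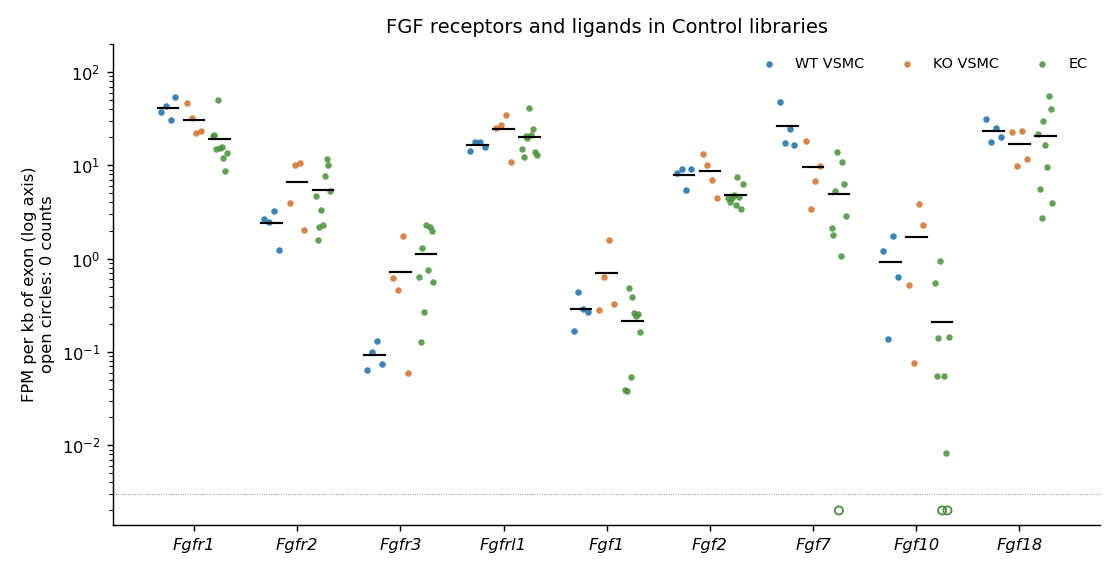
Level of the 9 genes in Control libraries, in FPM per kb of exon on a log axis. Points are libraries, coloured by cell type, black bars are group means, and open circles are libraries with 0 counts. Fgfr1 is at the top in WT VSMC, and the EC points of Fgf7 and Fgf10 spread over the widest range.

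KO VSMC had the same gene at the top, with 30.9 ± 11 FPM per kb for Fgfr1 (SD, n = 4), ahead of Fgfrl1 with 24.4 ± 10. Fgf18 had 16.9 ± 7.16, Fgf7 9.5 ± 6.27, Fgf2 8.68 ± 3.82 and Fgfr2 6.67 ± 4.32 FPM per kb. Fgf10 (1.7 ± 1.75), Fgfr3 (0.715 ± 0.714) and Fgf1 (0.704 ± 0.601) closed the order, and every pair of neighbours in it overlapped. In EC the first 3 genes were close, with 20.6 ± 18.1 FPM per kb for Fgf18, 20.1 ± 9.01 for Fgfrl1 and 19.1 ± 12.3 for Fgfr1 (SD, n = 9). Fgfr2 (5.47 ± 3.69), Fgf7 (4.9 ± 4.7) and Fgf2 (4.81 ± 1.33) formed a lower group. Fgfr3 had 1.13 ± 0.843 FPM per kb and did not overlap with Fgf2, while Fgf1 (0.214 ± 0.157) and Fgf10 (0.21 ± 0.321) were the lowest. The plot of Control levels shows these orders side by side.

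How the stressors acted on these genes was tested first in WT VSMC, by edgeR with the set as a block. Under ALL, 7.45% of the 16905 genes tested had an FDR under 0.05 against Control, and 3 of the 9 FGF genes did. Of these 3 genes 2 rose and 1 fell, where 3.92% of all genes rose and 3.53% fell.

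Fgfrl1, on chromosome 5 from 108840206 to 108858366, had 102, 127, 127 and 111 FPM in the Control libraries of sets 1 to 4 and 131, 176, 169 and 182 FPM under ALL. Every ALL library was above every Control library. The rise was 0.48 on the log2 scale (SE 0.07, FDR = 0.00149), a fold of 1.4. It was seen in 4 of 4 sets, which ranged from 0.36 to 0.71, and the call was kept without any of the 4 sets.

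Fgfr2, on chromosome 7 from 129763471 to 132725079, had 30.3, 28.2, 36.6 and 13.9 FPM under Control and 36.9, 42.3, 65.3 and 40.2 FPM under ALL. The groups did not overlap, although the highest Control library, that of set 3, and the lowest ALL library, that of set 1, were close. The rise was 0.80 on the log2 scale (SE 0.17, FDR = 0.00942), a fold of 1.74, and was seen in 4 of 4 sets. Set 4 started from the lowest level and moved most, by 1.53 on the log2 scale, and without it the rise was 0.58 with an FDR of 0.0177. Fgfr2 was the only one of the 9 that met the DEG criteria of the study (FDR under 0.05 in edgeR and DESeq2, a change of at least 0.64 on the log2 scale and a mean of at least 3 FPM), which 2.22% of all genes met.

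Fgfr1 had 474, 557, 389 and 691 FPM under Control and 409, 330, 325 and 463 FPM under ALL. The groups overlapped, but each set was lower under ALL than under Control. Fgfr1 fell by 0.44 on the log2 scale (SE 0.10, FDR = 0.0161). This call rested on sets 2 and 4, since the FDR was 0.0952 without set 2 and 0.105 without set 4. WT VSMC set 2 also had the highest level of the endothelial marker Pecam1 among these sets, with 17.3 FPM under Control and 6.68 FPM under ALL against at most 1.62 FPM in the other sets. Its part in the Fgfr1 change was not tested beyond leaving the set out.

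**Figure D2:**
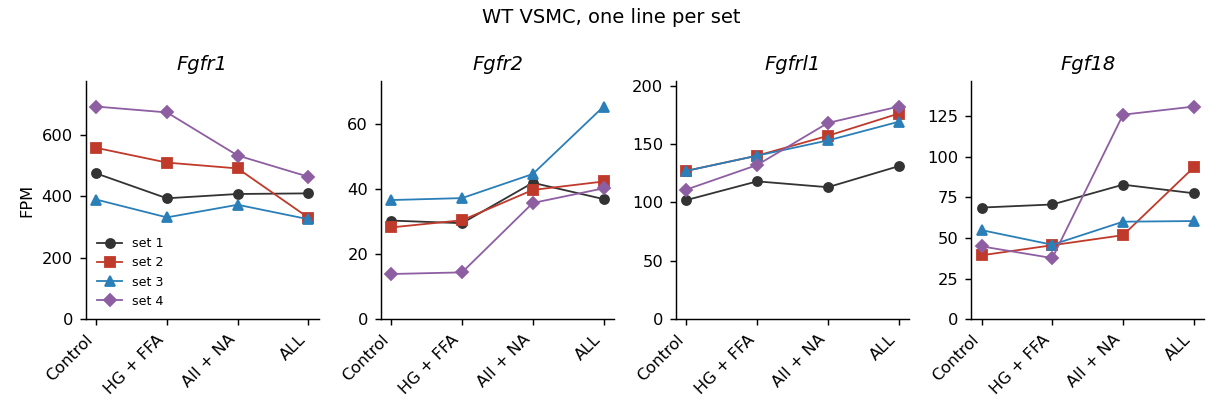
FPM of Fgfr1, Fgfr2, Fgfrl1 and Fgf18 in WT VSMC under the 4 conditions, 1 line for each set, with axes that start at 0. Fgfrl1 is higher under ALL than under Control in all sets, Fgfr2 rises most in sets 3 and 4, and the gain of Fgf18 is carried by sets 2 and 4.

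Among the ligands, Fgf18 came closest to the threshold. Its Control libraries had 68.8, 39.4, 54.9 and 44.9 FPM and its ALL libraries 77.6, 93.6, 60.5 and 131 FPM. All 4 sets were higher, by 0.14 to 1.54 on the log2 scale, with the large gains in sets 2 and 4. The mean change of 0.79 (SE 0.24) was as large as that of Fgfr2, but the FDR was 0.0589. Fgf7 had a change of 0.28 (95% interval -0.07 to 0.62), Fgf2 of 0.07 (-0.14 to 0.27), Fgf1 of 0.01 (-0.46 to 0.47) and Fgf10 of -0.08 (-0.53 to 0.37). The kinase receptor Fgfr3 had 0.812 to 1.26 FPM under ALL, with a change of 0.34 (-0.32 to 1.0). The interval of Fgf2 was narrow, whereas those of Fgf1, Fgf10 and Fgfr3 were wide at their low counts, so that moderate changes of these 3 genes were not detectable.

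Other marker genes moved in the same libraries. Of 8 smooth muscle markers, 2 rose under ALL, and their sum went from 381 to 1212 FPM under Control to 1121 to 1591 FPM. Of 10 endothelial markers 2 fell, of 5 pericyte markers 2 fell, of 8 fibroblast markers none passed, 1 of 3 cardiomyocyte markers rose, and both cycling markers, Mki67 and Top2a, rose. The endothelial sum did not fall, with 223 to 350 FPM under Control and 261 to 366 FPM under ALL. For the pericyte sum these ranges were 552 to 840 and 576 to 756 FPM. None of the endothelial markers was at 0 in every WT VSMC library. The part of these shifts in the FGF receptor changes was not tested.

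Fewer genes passed under either stressor pair alone. Under AII + NA, 0.0532% of all genes had an FDR under 0.05 and none of the 9 FGF genes did in edgeR, although 4 of them had an unadjusted p under 0.05, as did 9.42% of all genes, and DESeq2 called 2, Fgfr2 and Fgfrl1, among 169 genes or 1% of those tested. Fgfr2 had 41.9, 39.7, 44.6 and 35.7 FPM under AII + NA, above the Control library of the same set in 4 of 4 sets, with a change of 0.64 on the log2 scale (SE 0.17) and an FDR of 0.194 in edgeR and 0.0194 in DESeq2. Fgfrl1 had 113, 157, 153 and 168 FPM, again higher in 4 of 4 sets, with a change of 0.33 (SE 0.07), an FDR of 0.124 in edgeR and 0.00436 in DESeq2. The changes of Fgf18 (0.58, SE 0.24) and of Fgf7 (0.44, SE 0.16) had the same sign in all sets, with edgeR FDR of 0.454 and 0.363. Under HG + FFA 0.538% of all genes and none of the 9 passed in edgeR or DESeq2. Of the 9 only Fgfrl1 had an unadjusted p under 0.05 there, which is no more than the 11.2% of all genes that did. It was higher in 4 of 4 sets by 0.18 (95% interval 0.02 to 0.34), while Fgfr2 had a change of 0.03 (-0.33 to 0.39).

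Whether the combination went beyond its parts was asked in 2 ways. The departure from additivity, that is the ALL effect minus the sum of both single effects on the log2 scale, passed for none of the 9 and for 0 of the 16905 genes in edgeR, with 0 calls in DESeq2 and 290 genes at an unadjusted p under 0.05. It was 0.13 for Fgfr2 (95% interval -0.38 to 0.63), -0.03 for Fgfrl1 (-0.25 to 0.19), -0.07 for Fgfr1 (-0.38 to 0.24) and 0.27 for Fgf18 (-0.45 to 0.98). In KO VSMC and EC it also passed for 0 genes in edgeR and DESeq2, with 1155 and 1444 genes and none of the 9 at an unadjusted p under 0.05. The gain of ALL over HG + FFA, which shares the ALL libraries with the comparisons above, was 0.77 for Fgfr2 (SE 0.17, FDR = 0.0989 in edgeR and 0.00206 in DESeq2) and was positive in 4 of 4 sets. For Fgfrl1 it was 0.30 (SE 0.07, FDR = 0.125 and 0.0109), for Fgf18 0.84 (SE 0.24, FDR = 0.177 and 0.137) and for Fgfr1 -0.28 (SE 0.10, FDR = 0.324 and 0.223). In edgeR 0.0414% of all genes and none of the 9 passed here, and 4 of the 9 had an unadjusted p under 0.05, as did 10.8% of all genes. DESeq2 called 2 of the 9 and 1.33% of all genes.

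Fgfr2 and Fgfrl1 shared their direction in WT VSMC, so the 250 bases upstream of the start of their canonical transcripts are shown, read from the GRCm39 assembly on the coding strand. The window of Fgfr2 is chr7:129868273-129868522 on the minus strand and that of Fgfrl1 chr5:108841807-108842056 on the plus strand. The capitals mark GC boxes.
Fgfr2: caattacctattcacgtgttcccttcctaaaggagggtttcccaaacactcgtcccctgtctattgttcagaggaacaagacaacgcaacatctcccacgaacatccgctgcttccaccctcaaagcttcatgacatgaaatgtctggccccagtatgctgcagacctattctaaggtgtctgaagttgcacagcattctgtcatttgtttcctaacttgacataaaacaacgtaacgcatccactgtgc
Fgfrl1: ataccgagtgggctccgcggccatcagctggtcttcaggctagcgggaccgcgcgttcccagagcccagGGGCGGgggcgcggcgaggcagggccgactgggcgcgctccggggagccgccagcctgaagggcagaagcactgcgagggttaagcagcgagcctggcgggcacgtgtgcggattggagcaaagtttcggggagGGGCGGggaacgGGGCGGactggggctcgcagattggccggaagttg
The windows differ in composition, with a GC content of 46.4% for Fgfr2 and 71.2% for Fgfrl1 against a median of 53.2% over 21770 protein-coding genes. The GC box GGGCGG, searched on both strands, occurs 3 times upstream of Fgfrl1, not upstream of Fgfr2, and in 36.3% of all windows. The letters of the AP-1 site TGANTCA, of the cAMP response element TGACGTCA, of the TATA box TATAAA and of the CArG box are in neither window, and are found in 6.2%, 1.7%, 11.9% and 1.4% of all windows. Both genes have several annotated transcript starts, 21 for Fgfr2 and 15 for Fgfrl1, and which of them is used in these cells was not measured.

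In KO VSMC none of the 9 FGF genes passed under any stressor. Under ALL, where 0.399% of 17538 genes passed, Fgfr2 had 94, 86.4 and 31.7 FPM in sets 6 to 8 against 114, 121 and 23.2 FPM in their Control libraries. It was lower in 2 of 3 sets, with a change of -0.18 (95% interval -0.49 to 0.12). Fgfrl1 had 195, 153 and 81.9 FPM against 193, 247 and 76.6 FPM, a change of -0.18 (-0.49 to 0.13) with most of it in set 7. Fgfr1 was lower in 3 of 3 sets, with a change of -0.21 (-0.43 to 0.01) and an FDR of 0.497. Fgf18 had a change of 0.14 (-0.19 to 0.46).

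AII + NA alone gave another picture for Fgfr2 in KO VSMC. Its libraries had 53.7, 145, 144 and 41.4 FPM in sets 5 to 8, each above the Control library of the set with 44.7, 114, 121 and 23.2 FPM. The change was 0.40 (95% interval 0.13 to 0.68), with an unadjusted p of 0.00713 and an FDR of 0.509, in a comparison in which 0 genes passed in edgeR, 11 passed in DESeq2 and 1711 had an unadjusted p under 0.05. Fgfr3 had a change of 0.35 (0.04 to 0.66) there, also in 4 of 4 sets and with an FDR of 0.509. Under HG + FFA, where 0.439% of all genes passed, the 9 changes lay between -0.22 for Fgfr2 and 0.31 for Fgf10.

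Whether the response differed by genotype was tested as the effect in WT VSMC minus the effect in KO VSMC. Under ALL 2 genes, or 0.0109% of 18339, passed in edgeR, and none of the 9 FGF genes did. Fgfr2 differed by 0.99 (95% interval 0.49 to 1.49) with an FDR of 0.197 in edgeR and 0.0258 in DESeq2. Fgfrl1 differed by 0.66 (0.33 to 1.0) with an FDR of 0.205 in edgeR and 0.0287 in DESeq2. DESeq2 thus called 2 of the 9 and 0.316% of all genes, and edgeR had the same 2 and 7.42% of all genes at an unadjusted p under 0.05. Without KO VSMC set 7 the differences were 0.87 and 0.47, and without WT VSMC set 4 they were 0.78 and 0.61. Fgf18 differed by 0.65 (-0.01 to 1.32). Under AII + NA Fgfr2 differed by 0.25 (-0.22 to 0.72) and Fgfrl1 by 0.22 (-0.10 to 0.54), and in edgeR and DESeq2 0 genes passed there or under HG + FFA, with 2182 and 564 genes at an unadjusted p under 0.05.

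**Figure D3:**
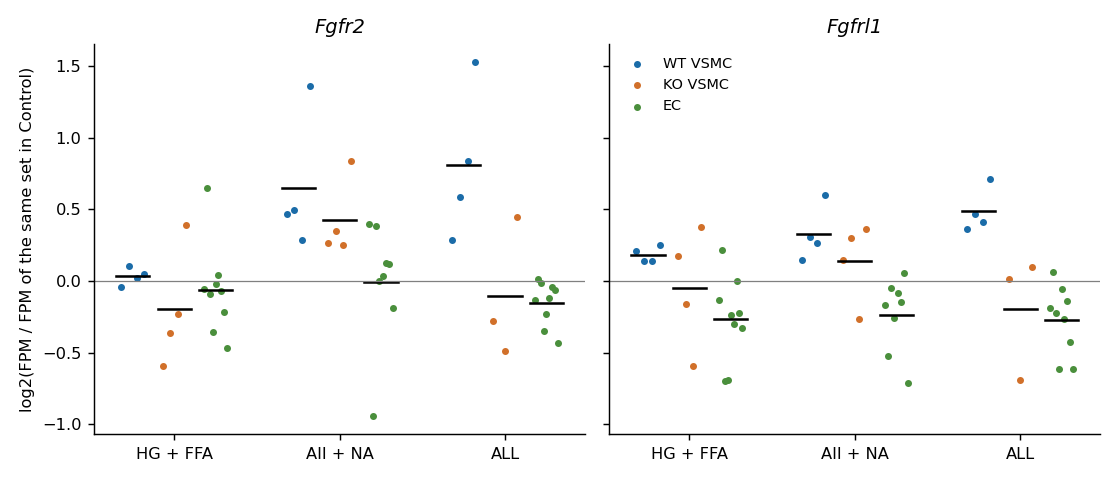
Change of Fgfr2 and Fgfrl1 in each set, as the log2 ratio of its FPM to its own Control FPM. Points are sets, coloured by cell type, and black bars are means. The WT VSMC points are all above 0 under AII + NA and ALL for both genes, and most EC points of Fgfrl1 lie below 0.

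In EC, Fgfr1 fell under HG + FFA and under ALL. Its Control libraries had 110 FPM at the lowest, 194 at the median and 639 at the highest, the last in set 13. Under HG + FFA 8 of 9 sets were lower, with a mean change of -0.31 on the log2 scale (SE 0.08, FDR = 0.0193), and 3.53% of 17148 genes passed. Under ALL, which shares its Control libraries with HG + FFA, 8 of 9 sets were lower with -0.27 (SE 0.08, FDR = 0.0491), and 3.18% of all genes passed. These calls were narrow. With the animal instead of the set as block the FDR was 0.0684 and 0.153. That fit merged sets 17 and 18 into 1 block but kept their libraries as separate replicates, so that their pairing was lost. Without set 18 the FDR was 0.0576 and 0.13. Without sets 9, 11 and 13 it was 0.0664 and 0.0892, although the change itself kept its size there with -0.31 and -0.30.

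Fgfrl1, which rose in WT VSMC, was lower in 8 of 9 EC sets under HG + FFA (-0.25, SE 0.09, FDR = 0.103), in 7 of 8 under AII + NA (-0.21, SE 0.09, FDR = 0.719) and in 8 of 9 under ALL (-0.29, SE 0.09, FDR = 0.057). DESeq2 called it under ALL with an FDR of 0.0289. Fgfr2 was lower in 8 of 9 sets under ALL by a small amount, -0.18 (95% interval -0.40 to 0.05). The other 6 genes did not pass in EC. Fgfr3 had a change of -0.54 under ALL (-1.11 to 0.03), in which the ALL library of set 18 was listed with 0 counts while the Control library of that set had 5.02 FPM. Under AII + NA 0 genes passed in edgeR and in DESeq2, with 1143 at an unadjusted p under 0.05. Fibroblast markers moved with these comparisons, 2 of 8 falling under HG + FFA and 1 of 8 under ALL, with sums of 832 to 20744 and 843 to 23578 FPM against 873 to 21014 under Control. In the same libraries 1 endothelial marker rose under both, 1 pericyte marker fell under HG + FFA and 1 mesothelial marker rose under ALL. Their part in the fall of Fgfr1 was not tested.

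**Figure D4:**
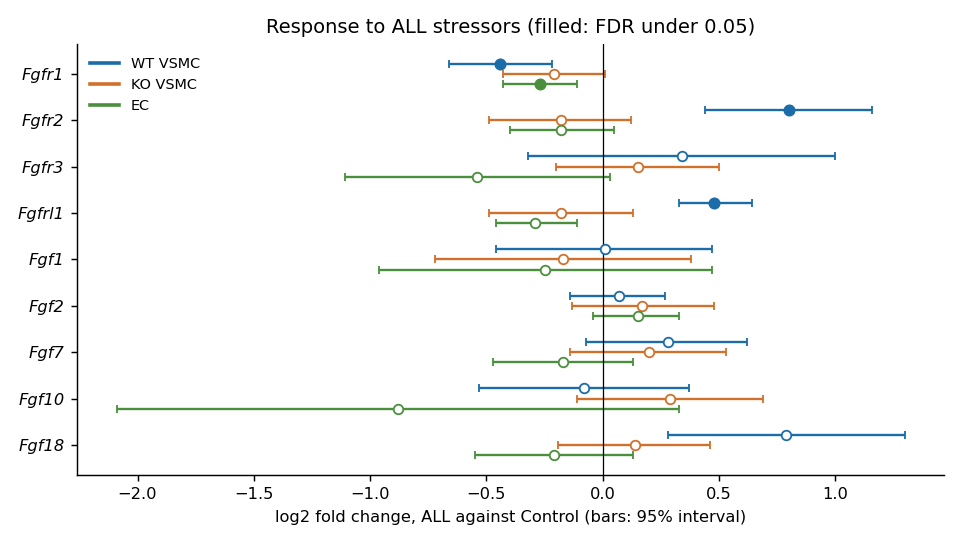
Log2 fold change of the 9 genes under ALL against Control in each cell type, with 95% intervals. Filled points had an FDR under 0.05 in edgeR. The WT VSMC values of Fgfr2 and Fgfrl1 lie to the right of 0 and those of KO VSMC and EC to the left of it, whereas Fgfr1 is below 0 in all cell types.

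The difference between WT VSMC and EC in the response to ALL was tested in the same way. Of 19362 genes tested 0.511% passed, and so did 2 of the 9, Fgfrl1 and Fgfr2, both of which also met the DEG criteria that 0.418% of genes met. Fgfrl1 differed by 0.76 (95% interval 0.48 to 1.05, FDR = 0.00319) and kept an FDR under 0.05 without any of the WT VSMC sets. Fgfr2 differed by 0.98 (0.55 to 1.4, FDR = 0.0135). Its FDR was 0.0518 without WT VSMC set 2, 0.0524 without set 3 and 0.229 without set 4, where the difference was 0.76. The FDR of Fgfr2 was 0.591 with the animal instead of the set as block. That fit merged EC sets 17 and 18 into 1 block but kept their libraries as separate replicates. Without EC sets 9, 11 and 13 both calls were kept, with 0.98 and 0.78. Fgf18 differed by 0.99 (0.36 to 1.62) with an FDR of 0.207, and Fgfr1 by -0.18 (-0.46 to 0.09). The labels put VSMC and EC in separate batches, so that cell type and batch cannot be told apart in this contrast. For AII + NA 0.0465% of genes and none of the 9 passed, with differences of 0.54 for Fgfrl1 (FDR = 0.188), 0.58 for Fgfr2 (FDR = 0.553) and 0.89 for Fgf18 (FDR = 0.502), and 4 of the 9 and 6.5% of all genes at an unadjusted p under 0.05. For HG + FFA 0 genes passed in edgeR and 3 in DESeq2, none of them an FGF gene, with 397 at an unadjusted p under 0.05.

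The levels under Control differed less clearly by genotype. Between KO VSMC and WT VSMC 1 gene, or 0.00622% of 16089, passed in edgeR, and none of the 9 did. Fgfr3 had 5.42, 4.06, 15.2 and 0.52 FPM in KO VSMC sets 5 to 8 and 0.57, 0.892, 1.14 and 0.65 FPM in WT VSMC. KO VSMC set 8 was as low as WT VSMC and the other 3 sets were above it. The difference was 2.93 on the log2 scale (SE 0.81) with an FDR of 0.32 in edgeR and 0.00725 in DESeq2, and Egfr itself, with a difference of -5.15, also had an edgeR FDR of 0.32. Fgfr2 differed by 1.46 (95% interval 0.32 to 2.59) and Fgf7 by -1.48 (-2.64 to -0.31), both with groups that overlapped and with FDR of 0.387 and 0.388. The fibroblast markers summed to 3442 to 13579 FPM in these KO VSMC libraries against 9940 to 25787 FPM in WT VSMC, the smooth muscle markers to 1003 to 3079 against 381 to 1212 FPM, and 3 mesothelial markers to 5.52 to 57.1 against 2.58 to 3.81 FPM, the last without overlap. No gene of these 3 lists passed the test, and their part in the FGF values was not tested.

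Between EC and WT VSMC, 12% of 17115 genes passed, and 2 of the 9 FGF genes did. Fgfr3 was 12.3-fold higher in EC (3.62 on the log2 scale, SE 0.76, FDR = 0.0106), with 1.13, 6.74 and 20.3 FPM as the lowest, median and highest of 9 libraries against at most 1.14 FPM in WT VSMC. The groups met only at set 11, the EC set with 1.13 FPM. Fgf2 was lower in EC by a log2 difference of -0.71 (SE 0.21, FDR = 0.0424), with 23.3, 30.4 and 51.7 FPM as the lowest, median and highest against 56.1, 62.3, 36.9 and 62.4 FPM in WT VSMC. This call was lost without WT VSMC set 1, 2 or 4, with FDR of 0.108, 0.131 and 0.121. Fgf7 did not overlap between the groups, with at most 60.7 FPM in EC and at least 71.9 FPM in WT VSMC, and its difference of -2.41 (95% interval -4.30 to -0.53) had an FDR of 0.0828. Fgfr1 differed by -1.10 (-1.88 to -0.32), with an FDR of 0.0614 in edgeR and 0.0259 in DESeq2, which called 3 of the 9 and 20.9% of all genes. Without EC sets 9, 11 and 13, 4 of the 9 and 28.5% of all genes passed, namely Fgfr3 (4.06, FDR = 0.000391), Fgfr1 (-1.61, FDR = 0.000437), Fgfr2 (1.49, FDR = 0.0468) and Fgf10 (-3.98, FDR = 0.0226), whereas Fgf2 no longer did (-0.64, FDR = 0.0677). Tissue, culture and batch differ together with the cell type here and cannot be told apart.

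The exons of Fgf2 need care, since 44.9% of their bases are also covered by Nudt6, an antisense neighbour, and Gm43439, and whether the counting used strand is not stated. Nudt6 itself stood at 1.55 FPM in WT VSMC and 1.36 FPM in EC, far below Fgf2. Of Fgfr3 13.1% is covered by an antisense gene with at most 0.0661 FPM in any set mean, and of Fgfr2 2.77% by exons of Ctbp2 on the same strand. Ctbp2 averaged 36.7 FPM in WT VSMC, where Fgfr2 averaged 35.4 FPM, and 37.3 FPM in KO VSMC and 48.7 FPM in EC. Counting by strand would not separate these 2 genes.

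On the log2 scale, the SD between set means exceeded the mean SD within a set for all 9 genes in KO VSMC and in EC, and in WT VSMC for Fgfr1, Fgf1, Fgf2, Fgf7 and Fgf10. In WT VSMC the mean of a set spanned 1.3-fold for Fgfrl1 and 1.66-fold for Fgfr1 but 10.6-fold for Fgf10, from 0.924 FPM in set 2 to 9.79 FPM in set 3. KO VSMC spanned 24.4-fold for Fgfr3 and 35.9-fold for Fgf10, both with set 7 at the top. In EC, Fgf7 reached from 0.0562 FPM in set 14 to 94.6 FPM in set 13, and Fgf10 had 0 counts in every library of sets 14 and 17 and 4.93 FPM on average in set 13. The exceptions in WT VSMC were Fgfr2, with an SD of 0.39 between and 0.43 within sets, Fgf18 with 0.25 and 0.45, Fgfrl1 with 0.17 and 0.21 and Fgfr3 with 0.22 and 0.38.

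In Control libraries the EC sets with little endothelial RNA were low for Fgf1. The 3 animals of sets 9, 11 and 13, with endothelial sums of 326, 380 and 513 FPM, had 0.329, 0.324 and 0.461 FPM of Fgf1. These values rested on 8, 6 and 11 counts. The other 5 animals, with endothelial sums of 1280 to 5338 FPM, had 1.72 to 4.08 FPM. The separation was also seen under HG + FFA, with at most 0.669 FPM in sets 9, 11 and 13 and at least 1.02 FPM in the other sets. It was not kept under AII + NA or ALL. Under AII + NA, set 13 had 1.44 FPM, above the 0.892 FPM of set 18. Under ALL, set 13 had 1.65 FPM of Fgf1, above the 0.89 FPM of set 17 and the 0.153 FPM of set 18. Of 18 relations tested by an exact permutation test between the 9 genes and the endothelial or fibroblast sum over 8 animals, 2 passed after Benjamini-Hochberg adjustment, both for Fgf1 (adjusted exact p = 0.0147 for the endothelial and 0.0408 for the fibroblast sum by Pearson's r). By ranks (Spearman's rho) the endothelial relation passed and the fibroblast one did not (adjusted exact p = 0.0402 and 0.0652). As the animals fall into separate clusters with fewer than 6 in each, no correlation coefficient is given, and the relation within clusters could not be tested. With all conditions averaged for 9 animals none of the 18 passed, with an adjusted permutation p of 0.0617 for Fgf1 and the endothelial sum. Fgfr3 had its lowest values of 1.13 and 2.39 FPM in sets 11 and 13, those with the highest fibroblast sums of 20541 and 21014 FPM, and Fgfr1 its highest of 273 and 639 FPM in the same sets, with adjusted exact p of 0.0743 and 0.248.

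**Figure D5:**
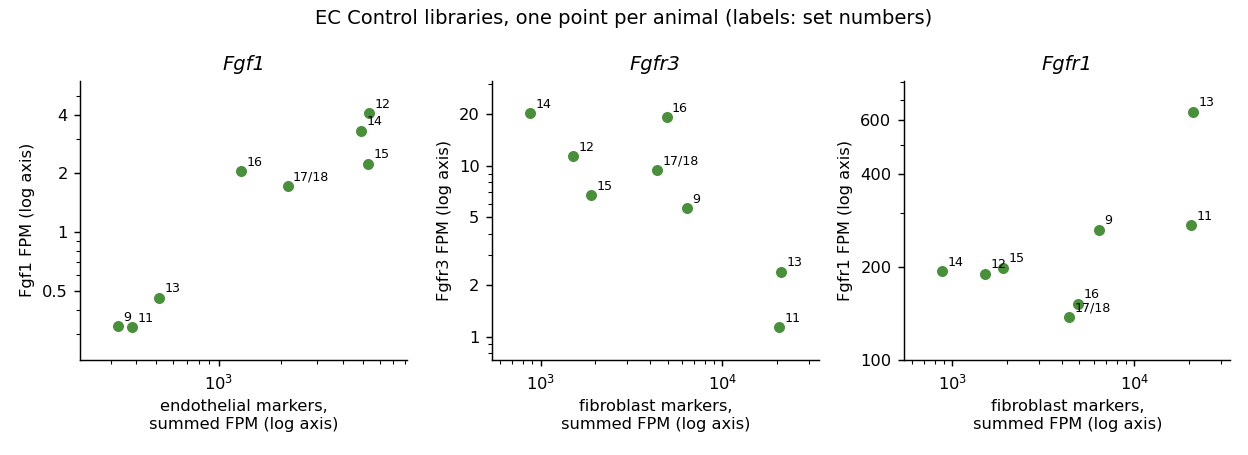
FPM of Fgf1, Fgfr3 and Fgfr1 in EC Control libraries against the summed FPM of endothelial or fibroblast markers, with log axes and 1 point for each animal labelled by its set. Fgf1 is at most 0.461 FPM in the animals of sets 9, 11 and 13 and at least 1.72 FPM in the other 5.

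The wider FGF pathway was followed with a list of 78 genes. Of the 17 other Fgf genes, 10 were under 1 FPM in the mean of every Control group, and only Fgf11, Fgf14 and Fgf23 reached 3 FPM in one. Fgfr4 and the co-receptors Kl and Klb stayed at or below 0.121 FPM in these means. Under ALL in WT VSMC, 65 of the list were tested, 4 rose and 2 fell, where 7.45% of all genes passed, with a median change of -0.02 against -0.010 over all genes. Of 18 feedback inhibitors and target genes 2 rose and 1 fell. Of 20 heparan sulfate proteoglycans, binding proteins and modifiers 2 rose and 1 fell. Of 18 adaptors and effectors and 9 other Fgf genes none passed.

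By size of change the list was led in WT VSMC by Egr1, an immediate early transcription factor downstream of ERK, which fell by 1.05 on the log2 scale (SE 0.27, FDR = 0.0262), from a mean of 73.6 to 36.1 FPM. Spry4, a feedback inhibitor of receptor tyrosine kinase signalling, rose by 0.93 (SE 0.25, FDR = 0.0293), from 4.35 to 8.29 FPM. Flrt2, a membrane protein that binds FGF receptors, fell by 0.74 (SE 0.13, FDR = 0.00303), and Sdc2, a heparan sulfate proteoglycan of the cell surface, rose by 0.47 (SE 0.08, FDR = 0.0033). Each of the 4 moved the same way in 4 of 4 sets. Under HG + FFA, where 0.538% of all genes passed, 1 of the 65 did, Sdc2 with 0.40 (SE 0.08, FDR = 0.0428). In KO VSMC none of 64 passed under ALL or HG + FFA, where 0.399% and 0.439% of all genes did.

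In EC 1 of 64 rose and 3 fell under ALL, where 3.18% of all genes passed, with a median of -0.09 against -0.012 over all genes. Sdc2 rose there too (0.31, FDR = 0.0234) and Egr1 fell (-0.82, FDR = 0.00106), each in 8 of 9 sets. Etv5, an ETS factor induced by FGF signalling, fell by 0.37 (FDR = 0.022), and Ext1, which builds heparan sulfate chains, by 0.20 (FDR = 0.0273). Under HG + FFA in EC, where 3.53% of all genes passed, 1 rose and 2 fell, Sdc2 with 0.34 (FDR = 0.0116), Egr1 with -0.83 (FDR = 0.000963) and Sdc4 with -0.24 (FDR = 0.0474). The ALL effect differed between WT VSMC and EC for Spry4 by 1.15 (SE 0.25, FDR = 0.0135) and for Flrt2 by -0.64 (SE 0.15, FDR = 0.0268). These were 2 of 66 tested, where 0.511% of all genes passed. In the Control levels, 6 of 65 were higher in EC than in WT VSMC and 1 was lower, a share no larger than the 12% of all genes that passed. The largest differences were those of Dusp4, a MAP kinase phosphatase (3.25, FDR = 0.0303), Spry4 (1.37, FDR = 0.0161), Cbl, a ubiquitin ligase of receptor tyrosine kinases (1.29, FDR = 0.00838), and Il17rd, an FGF feedback inhibitor (-1.04, FDR = 0.0214).

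Genes with the most similar pattern to the 3 called receptors were sought among 11199 other protein-coding genes over the 16 WT VSMC libraries, by Pearson's r of log2 FPM taken relative to the mean of the set. This is a description, as the libraries share sets and treatments. For Fgfr2 these were Myo10 (r = 0.97), Nuak1 (0.96) and Lrrfip1 (0.96), which rose under ALL by 0.84, 0.67 and 0.58 on the log2 scale. For Fgfrl1 they were Sqle (0.97), Tnc (0.96) and Dmpk (0.96), with rises of 0.89, 1.49 and 0.83. For Fgfr1 they were Igsf3 (0.96), Ptpn13 (0.96) and Lama4 (0.95), which fell by 0.53, 0.66 and 0.92. Among the 9 FGF genes themselves, r was 0.88 between Fgfr2 and Fgfrl1, 0.89 between Fgfr2 and Fgf18, 0.82 between Fgfrl1 and Fgf18, -0.73 between Fgfr1 and Fgfr2 and -0.83 between Fgfr1 and Fgf18, whereas Fgf2 had no r beyond 0.17 with these receptors.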

How the data were processed

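RNA-Seq counts per gene of 69 libraries were used. The authors aligned poly(A) reads to mm39 with HISAT2 2.1.0, counted them over exons with featureCounts, multimapping reads included, and deposited the raw counts. The strand setting is not given in the sources used here. FPM was calculated from TMM-normalized library sizes. After edgeR's filterByExpr, quasi-likelihood models (R 4.3.3, edgeR 4.0.16) with condition and set number were fitted for each cell type, and joint models for differences between cell types. FDR is the Benjamini-Hochberg adjusted p over all genes tested, and SE and 95% intervals come from this fit. Control levels were compared without the block, with all libraries as replicates. DESeq2 1.42.0 was run in parallel. Positions come from GENCODE (GRCm39). Identifiers missing from it held 0.0241% of counts. A pseudocount of 0.1 FPM was used for log2 ratios of sets. The FGF genes and the pathway and marker lists were chosen with earlier results of these data known. Named besides the 9 genes were at most 4 pathway genes per comparison with FDR under 0.05 and the largest change, and the 3 genes most like each receptor called in WT VSMC. The models were tested on simulated data. Sets come from the sample labels and the study, a set being 1 animal and passage. Libraries of the same set deviated together from the condition means, with mean correlations of 0.797 (WT VSMC), 0.78 (KO VSMC) and 0.82 (EC), against -0.269, -0.28 and -0.0913 between sets. No libraries of a group differed by so little as sampling noise (chi-square per gene at least 45.9).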

Additional observations from a re-analysis of the deposited data

Results flagged for a closer look

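Of 99 groups of 4 to 10 libraries, 1 for each of the 9 genes and each group of that size, 9 had a library far from the others by Dixon's test, where chance flags about 1 in 20. EC set 13 was the highest for Fgfr1, with 639 FPM under Control (next 273) and 475 FPM under AII + NA (next 271), and for Fgf10 under HG + FFA, with 5.52 FPM (next 2.53). EC set 14 was the highest for Fgfrl1, with 293 FPM under Control (next 173), 277 FPM under AII + NA (next 156) and 282 FPM under ALL (next 157). EC set 10 had 81.7 FPM of Fgf2 under AII + NA (next 45.3). WT VSMC set 1 had the highest Fgf7 under AII + NA, with 253 FPM (next 129), and the lowest Fgf1 under ALL, with 1.1 FPM (next 2.77). The response to ALL differed between WT VSMC and EC by a log2 difference of 0.98 for Fgfr2 and 0.76 for Fgfrl1, each tested as an interaction with an FDR under 0.05.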

How the results depend on the processing

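Of 39 changes of single genes with an unadjusted p under 0.05, recomputed under 408 alternatives, 353 stayed on their side of the threshold, 28 lost the call and 25 gained it. Fgf7 reversed in 2, both without the block (WT VSMC minus EC, HG + FFA -0.21, AII + NA -0.25). The cause of the changes was not tested.

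The pairing carried the calls of nearly all genes, not only of these 9. With no replicate block, 0 of the 9 and 0 of all genes passed under ALL in WT VSMC (3 of the 9 with it). The same held for WT VSMC minus EC under ALL (2 of the 9 with it). In EC, 0 of the 9 and 0.0117% of all genes passed under HG + FFA and under ALL (1 of the 9 each with it). The block changed no other count of the 9. DESeq2 called 2 under AII + NA, 2 for ALL against HG + FFA and 2 for WT VSMC minus KO VSMC under ALL (0 in edgeR), 2 under ALL in EC (5.22% of all genes), 1 between KO VSMC and WT VSMC (2.13%) and 3 between EC and WT VSMC (20.9%). Without a count filter more passed in the comparisons below, except between EC and WT VSMC, and ligands were included. All 9 genes had passed the filter, so its removal added none of them to the tests. What changed was the SE. Under ALL in WT VSMC the change of Fgf18 was 0.78 with an SE of 0.09, against 0.79 and 0.24 with the filter. For Fgfr2 the SE was 0.10 against 0.17. These added calls therefore rest on smaller SE and not on larger changes. In WT VSMC 4 passed under ALL (5.61% of all genes), with Fgf18 added, and 4 under AII + NA (1.86%), among them Fgf18 and Fgf7. For ALL against HG + FFA 2 passed there (1.94%), 1 of them Fgf18. In EC 2 passed under HG + FFA (2.42%) and 3 under ALL (2.44%). For WT VSMC minus EC 1 passed under AII + NA (0.496%), namely Fgf18, and 3 under ALL (0.932%). For WT VSMC minus KO VSMC under ALL 3 passed (0.905%), and between EC and WT VSMC 1 (4.74%), against 2 with the filter. By the DEG criteria 1 remained in WT VSMC under ALL and 0 in EC under HG + FFA and ALL. In EC, 0 passed under HG + FFA and 0 under ALL with complete sets (1.83% and 1.35% of all genes) or the animal as block (0.916% and 0.781%). The same held for 2 fits chosen after seeing the data, without sets 9, 11 and 13 (2.58% and 1.91%) and without set 18 (3.07% and 1.79%). Under ALL 0 passed without sets 15 and 16 (1.68%), whose animals also gave KO VSMC. Between EC and WT VSMC, 4 passed without sets 9, 11 and 13 (28.5% of all genes). For WT VSMC minus EC under ALL 1 passed with the animal as block (0.0878% of all genes) and 1 to 2 with a WT VSMC set left out (0.177% to 0.552%). Between EC and WT VSMC 1 to 2 passed with a set left out (3.72% to 10% of all genes). With all conditions averaged, 0 relations across EC animals passed (2 in Control). Low counts of Fgf1, Fgf10 and Fgfr3 and n = 3 or 4 in VSMC limit what could be detected.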
